A study of Mus musculus with 12 samples.

Results

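Gene expression was compared between 2 groups of mouse kidneys that had both undergone ischemia-reperfusion (I/R): kidneys labelled as lacking augmenter of liver regeneration (ALR, encoded by Gfer) in the proximal tubule, and control kidneys. The comparison used 6 of the 12 RNA-seq libraries of the study, 3 labelled PT-KO+I/R (numbers 2, 3 and 4) and 3 labelled Ctrl+I/R (numbers 1, 2 and 4), and all genes. Of 55487 genes in the count table, 15281 had enough reads in these 6 libraries to be tested. PT-KO mice carried ALR flox/flox alleles and a Ggt1-Cre transgene, whose promoter is active in proximal tubule cells, so other kidney cells kept the gene; their genotype label reads ALR knockdown. Control mice carried ALR flox/flox alleles without Cre and are labelled WT. All were C57BL/6 background mice of 6 to 8 weeks, both renal pedicles were clamped for 22 min, and tissue labelled kidney cortex was taken 24 h after the clamps were removed. The other 6 libraries came from PT-KO and Ctrl mice without ischemia (sham) and were used for 1 comparison near the end. Nothing in the labels says whether each library was from a separate animal, so p-values measure the spread between these samples.

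ALR is a sulfhydryl oxidase. In the space between the mitochondrial membranes it keeps Mia40 (Chchd4) oxidized, and Mia40 in turn folds small cysteine-rich proteins that enter from the cytosol. The proximal tubule reabsorbs the bulk of filtered solutes, burns fatty acids rather than glucose, and is the segment most exposed to ischemia. In the day after a sublethal ischemic injury, tubule cells lose transporters, switch on injury genes, and some re-enter the cell cycle to replace those that were lost.

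Total counts were 14441053 to 20470901 in Ctrl+I/R and 12165089 to 23123693 in PT-KO+I/R. Mitochondrial transcripts made up 11.8% to 13.2% of counts in Ctrl+I/R and 13.6% to 16.1% in PT-KO+I/R, and nuclear ribosomal RNA made up 1.17% in Ctrl+I/R library 1 against at most 0.214% in the other 5 libraries. The correlation of log2 CPM (counts scaled to library size) over genes was 0.965 to 0.98 within Ctrl+I/R, 0.977 to 0.99 within PT-KO+I/R and 0.891 to 0.932 between the groups. Xist, a transcript of female cells, had at most 11 counts in each of the 6 libraries. Defining markers of the proximal tubule were abundant in both groups, with Lrp2 (megalin) at 1293 to 2830 CPM in Ctrl+I/R and 662 to 810 in PT-KO+I/R. Single libraries are given throughout in the order Ctrl+I/R 1, 2 and 4, then PT-KO+I/R 2, 3 and 4, in CPM after TMM scaling, and fold changes are log2 of PT-KO+I/R over Ctrl+I/R.

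Gfer mRNA was not lower in the libraries labelled PT-KO+I/R. It measured 15.9, 20.3 and 18.2 CPM in Ctrl+I/R and 22.1, 23.4 and 22.3 CPM in PT-KO+I/R, so each library of the second group lay above each of the first. The log2 fold change was 0.32 (SE 0.13, adjusted p = 0.0723 by edgeR), and the exact two-sided permutation test of the 4.44 CPM difference gave p = 0.1, the smallest value that 3 against 3 can give. The call passed without Ctrl+I/R library 2 (log2 fold change 0.40, adjusted p = 0.0401). The counts cover the whole gene and the whole cortex, whereas the loxP sites flank a stretch between exon 1 and exon 3 in 1 cell type, so they need not show the deletion. Since the counts do not show it, directions below are those of libraries labelled PT-KO+I/R. The paper itself reports less ALR in kidneys of PT-KO mice than in those of control mice.

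Gfer lies on mouse chromosome 17, and its start faces that of Noxo1, an organizer of NADPH oxidase, across a shared promoter. The 77 bases between the starts (GRCm38.p6, RefSeq, chr17:24696157-24696233, given on the Gfer strand) are shown because they separate the 2 starts, from which the genes run in opposite directions:
Gfer to Noxo1: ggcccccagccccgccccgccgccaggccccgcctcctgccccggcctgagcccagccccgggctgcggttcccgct
Noxo1 measured 2.51, 1.27 and 1.77 CPM and 0.875, 1.005 and 0.864 CPM, a fall of 1.01 on the log2 scale (SE 0.35, adjusted p = 0.0472). That call was lost without any 1 of Ctrl+I/R libraries 1 and 4 and PT-KO+I/R libraries 2, 3 and 4 (adjusted p up to 0.179), and also with DESeq2 (0.12) and limma voom (0.071). The neighbouring Zfp598, a sensor of collided ribosomes, rose from 37.8, 40.9 and 35.6 CPM to 63.4, 69.6 and 67.9 CPM (log2 fold change 0.81, SE 0.10, adjusted p = 0.000685), and Tbl3, a ribosome assembly factor, rose by 0.54 (SE 0.11, adjusted p = 0.00646, but 0.0639 with total counts).

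The groups differed in a large share of the genes. Of the 15281 tested genes 46.9% were called at an adjusted p under 0.05, with 22.5% called higher and 24.4% called lower in PT-KO+I/R. Changes over 2-fold (20.2% of genes) were more often losses, with 6.55% of tested genes called and over 2-fold higher and 13.7% called and over 2-fold lower. The balance of calls depended on the scaling: 48% of calls were higher after TMM, 38.5% with upper quartile factors and 28% with total counts (1978 higher, 5080 lower), under which the median of all genes shifted by -0.21. Every library of one group lay above every library of the other for 58.8% of genes, 29.4% in each direction. Counts of list members below, and statements that groups did not overlap, are to be read against these shares.

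**Figure D1:**
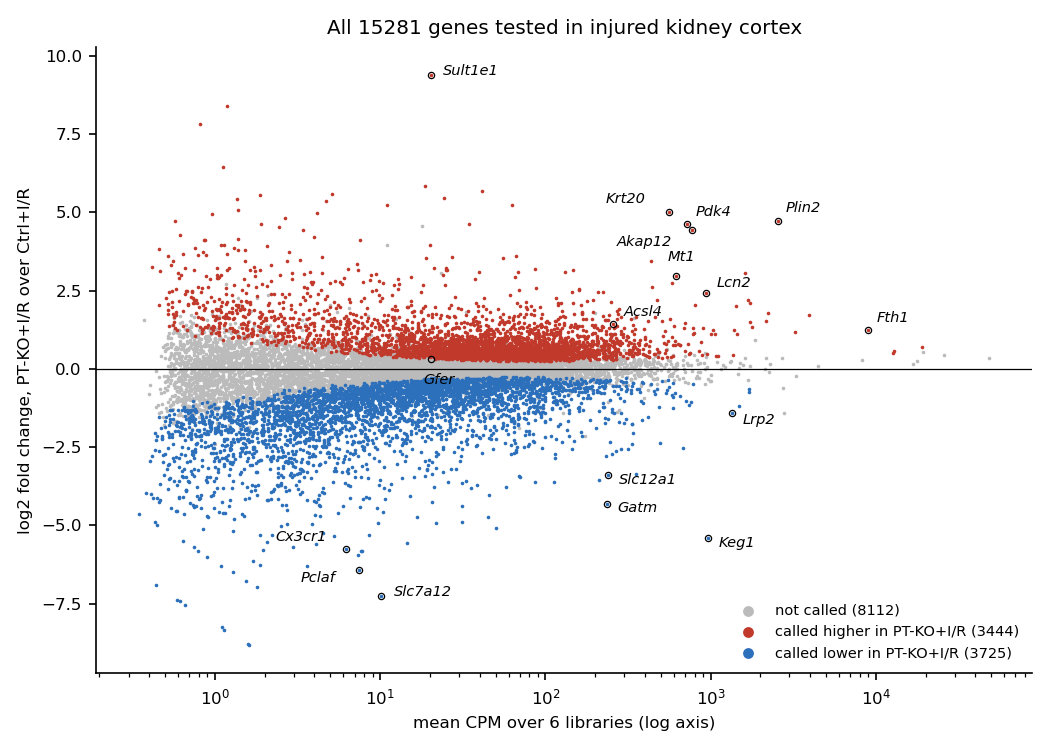
Log2 fold change of PT-KO+I/R over Ctrl+I/R (vertical axis) against mean CPM over the 6 libraries (horizontal log axis) for all 15281 tested genes, red called higher, blue called lower and grey not called. The 3444 higher and 3725 lower calls span the whole range of abundance, and Sult1e1 at 9.37 and Slc7a12 at -7.27 lie near the extremes.

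Among protein-coding genes averaging 100 counts or more, the 15 with the highest fold changes included genes of lipid storage and fuel choice, a keratin and signalling scaffolds. Plin2, which coats lipid droplets, measured 187, 283 and 81.8 CPM in Ctrl+I/R and 4364, 5275 and 5110.4 CPM in PT-KO+I/R (log2 fold change 4.74, SE 0.44, adjusted p = 0.00031). All PT-KO+I/R libraries were more than 10-fold above the highest control library. Pdk4, the kinase that keeps pyruvate out of the mitochondrial citric acid cycle, measured 78.3, 62 and 28.7 CPM and 1262, 1297 and 1613 CPM (log2 fold change 4.62, SE 0.37, adjusted p = 0.000201). Akap12, a scaffold for protein kinase A, measured 49.7, 112 and 41.5 CPM and 949.6, 1789 and 1683 CPM (log2 fold change 4.44, SE 0.45, adjusted p = 0.000378). The control libraries of Akap12 differed among themselves, with library 2 the highest, but stayed far below the other group. Zbtb16, a transcription factor induced by glucocorticoids in several tissues, measured 1.76, 3.61 and 2.63 CPM and 66.2, 61.8 and 69.7 CPM, and Sphk1, which makes sphingosine 1-phosphate, measured 9.24, 14.2 and 6.96 CPM and 103, 125 and 142 CPM. Both sets of libraries were narrow and well apart (log2 fold changes 4.63 and 3.60, adjusted p = 5e-05 and 0.000154). Sgtb, a co-chaperone of tail-anchored proteins, rose by 3.59 (SE 0.16, adjusted p = 5e-05), Tmem252 by 3.44 (adjusted p = 0.000228), the adhesion receptor Adgrg2 by 3.53 (adjusted p = 0.00013) and the chromatin protein Hmga1 by 3.53 (adjusted p = 0.000707).

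The 15 lowest fold changes held proximal tubule enzymes, genes of dividing cells and genes of white blood cells. Keg1, a glycine N-acyltransferase-like gene of kidney, measured 1497, 1865 and 2333 CPM in Ctrl+I/R and 57.8, 42.8 and 33.3 CPM in PT-KO+I/R (log2 fold change -5.41, SE 0.28, adjusted p = 6.39e-05). It was among the abundant genes of the injured control kidneys and fell to between 33.3 and 57.8 CPM. Hsd3b2 and Hsd3b3, steroid dehydrogenases, fell together: Hsd3b2 measured 82.1, 51.9 and 157 CPM and 4.20, 2.51 and 2.13 CPM, and Hsd3b3 measured 56.3, 34.7 and 90.6 CPM and 3.41, 1.46 and 1.53 CPM. As near-identical paralogs they may share reads, so their values are not independent (log2 fold changes -5.08 and -4.90, adjusted p = 0.000309 and 0.000306). Acmsd, which diverts tryptophan breakdown away from NAD synthesis, measured 99.7, 43.8 and 116 CPM and 4.73, 2.37 and 2.93 CPM (log2 fold change -4.74, SE 0.43, adjusted p = 0.000275). Aoc1, the diamine oxidase that degrades histamine and putrescine, measured 26.5, 78.5 and 22.2 CPM and 1.31, 1.74 and 1.06 CPM (log2 fold change -4.91, SE 0.57, adjusted p = 0.000619). Control library 2 was the highest for Aoc1 and the lowest for Acmsd, and neither gene overlapped between the groups. Clec2h, Nat8f6 and Prok1 fell by 4.57, 4.73 and 5.95 on the log2 scale (adjusted p = 0.000594, 0.000763 and 0.000199).

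**Figure D2:**
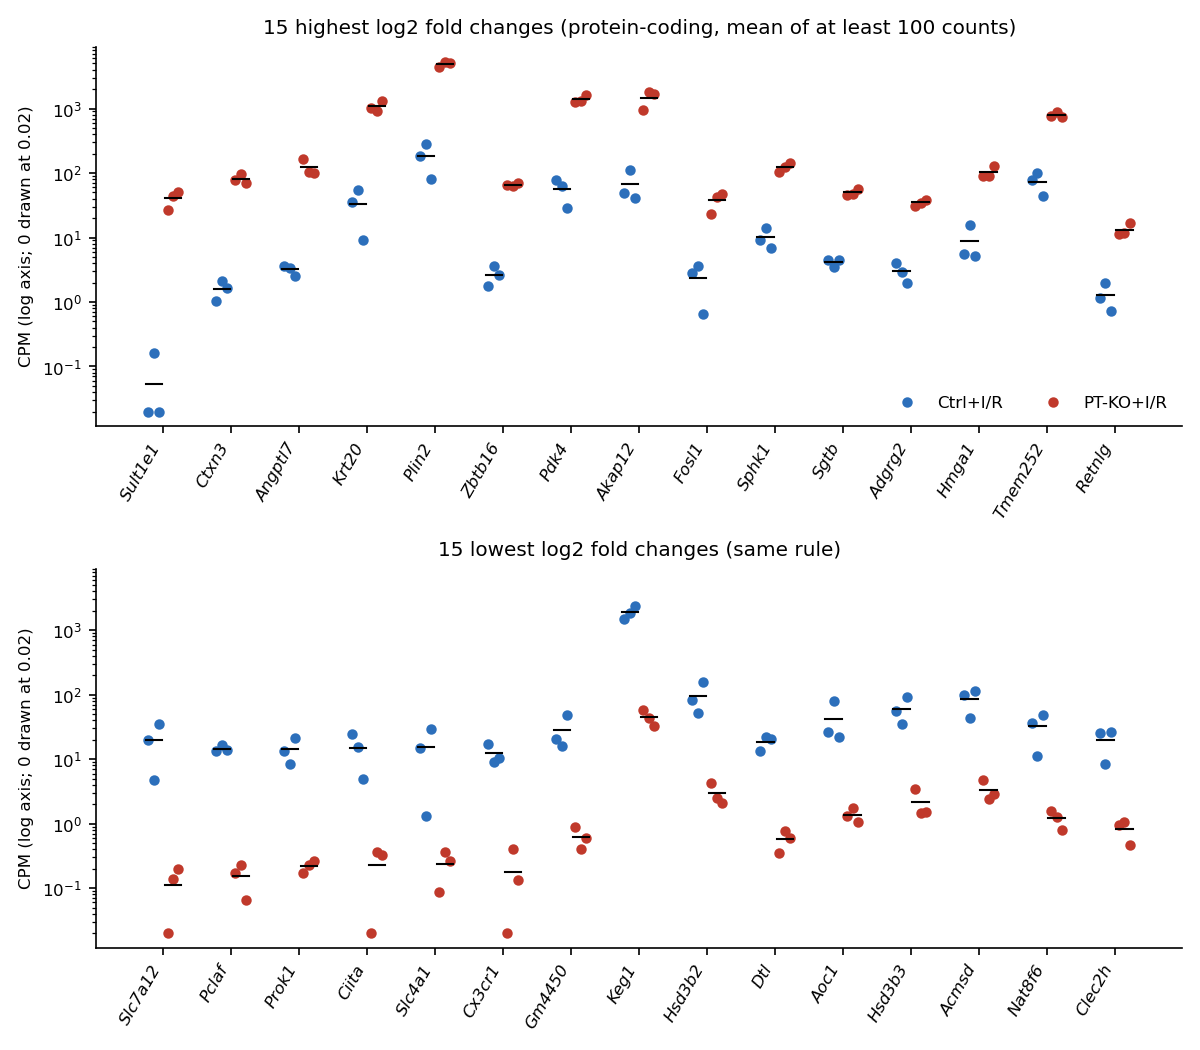
CPM (log axis, 0 drawn at 0.02) in each of the 3 Ctrl+I/R libraries (blue) and 3 PT-KO+I/R libraries (red) for the 15 highest and 15 lowest fold changes, with a black bar at each group's mean. Libraries of the groups do not overlap for any gene shown, and control values are the more scattered for Krt20, Fosl1 and Slc4a1.

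Some genes were close to absent from 1 group, with at most 3 counts in each of its libraries and a mean of at least 50 counts in the other. Sult1e1, which sulfates and inactivates estrogens, had 0, 3 and 0 counts in Ctrl+I/R and 302, 969 and 763 counts in PT-KO+I/R, a ratio of 780 after scaling (exact 95% interval 266 to 3785, counting error only). Apol8 was the only other protein-coding gene of this kind that was higher in PT-KO+I/R, with counts of 3, 1 and 0 against 37, 46 and 87 (ratio 48.9, interval 18.7 to 181). The other 9 were not protein-coding and had at least 89.3% of their counts in PT-KO+I/R library 2. The reverse pattern was met by 19 genes, 13 of them protein-coding. Akr1c20, an aldo-keto reductase, had 66, 47 and 56 counts in Ctrl+I/R and 0, 0 and 1 in PT-KO+I/R (ratio 147, interval 26 to 5837). A4gnt, a glycosyltransferase of mucins, had 139, 57 and 181 counts against 0, 1 and 3 (ratio 81.9, interval 31.7 to 302). Slc7a12, an amino acid transporter with sex-dependent expression in mouse kidney, had 427, 91 and 545 counts against 0, 3 and 3 (ratio 154, interval 70.5 to 421). Tmem207 had 124, 12 and 100 counts against 1, 3 and 1, so control library 2 was again low, and the remaining protein-coding genes were of dividing or white blood cells.

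Markers of the proximal tubule were lower in part, and called higher in no case, in both of its main portions. Of 20 tested markers of the S1 and S2 segments 12 were called lower and 0 higher (2 were higher without Ctrl+I/R library 4), with a median log2 fold change of -1.23 against -0.01 over all genes. Of 16 markers of the S3 segment 8 were called lower and 0 higher (1 without PT-KO+I/R library 2), with a median of -1.03. In bulk tissue, fewer cells of a type and less RNA per cell cannot be told apart. Gatm, the first enzyme of creatine synthesis, measured 396, 161 and 794 CPM and 28.1, 21.1 and 19.5 CPM (log2 fold change -4.30, SE 0.55, adjusted p = 0.000831). Slc2a2 (GLUT2), the basolateral glucose exit, measured 198, 198 and 231 CPM and 26.8, 14.1 and 11 CPM (log2 fold change -3.61, SE 0.31, adjusted p = 0.000233). Its control libraries differed little, while those of Gatm ranged widely, and the groups did not overlap for either gene. Slc5a12, a lactate carrier, measured 415, 223 and 523 CPM and 48.8, 27.1 and 23.1 CPM, and Slc7a7, a basolateral amino acid exporter, measured 193, 165 and 246 CPM and 32.5, 26.2 and 24.7 CPM (log2 fold changes -3.56 and -2.86, adjusted p = 0.000499 and 0.000108). The sulfate carrier Slc13a1 fell from 1403, 1447 and 625 CPM to 244, 227 and 136 CPM (log2 fold change -2.52, adjusted p = 0.00129). In the S3 segment, Slc16a9, Fgf1 and the glucose carrier Slc5a1 fell by 2.46, 1.96 and 1.81 on the log2 scale (adjusted p = 0.000353, 0.0001 and 0.000202). Not each marker moved: Slc5a2 (SGLT2), the S1 glucose carrier, measured 317, 202 and 426 CPM and 347, 248 and 272 CPM (log2 fold change -0.13, SE 0.26, adjusted p = 0.715).

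Most transcription factors that set proximal tubule identity did not pass the test. The share called was near that of all genes. Of 14 tested, 2 were called higher and 4 lower (8 lower with total counts, 2 without PT-KO+I/R library 3 or library 4), with a median of -0.20 (-0.41 with total counts, -0.32 to -0.12 with 1 library left out). Tfec measured 22.8, 23.1 and 25.6 CPM and 6.74, 5.25 and 3.32 CPM (log2 fold change -2.23, SE 0.23, adjusted p = 0.000434), and Esrra, a nuclear receptor that drives mitochondrial genes, measured 69, 53.9 and 107 CPM and 32.9, 33.1 and 26.7 CPM (log2 fold change -1.31, SE 0.24, adjusted p = 0.00355). Both fell without overlap. Pax8, which marks renal epithelium, rose from 82.7, 98 and 74.5 CPM to 193, 197 and 250.1 CPM (log2 fold change 1.33, adjusted p = 0.000549), and Ppara rose by 1.17 (adjusted p = 0.00675). Hnf4a, the main driver of proximal tubule genes, measured 539, 491 and 773 CPM and 533, 448 and 383 CPM (log2 fold change -0.40, SE 0.20, adjusted p = 0.135). Hnf4a passed as lower with total counts (-0.60, adjusted p = 0.0389). Among 22 organic anion and cation transporters 5 were called higher (3 with total counts or without PT-KO+I/R library 4) and 8 lower, with a median of -0.41 (-0.68 without Ctrl+I/R library 2). Slco4c1, a basolateral carrier of cardiac glycosides and thyroid hormone, fell by 3.12 on the log2 scale (adjusted p = 0.00171), and Slc22a2 (OCT2), the basolateral cation carrier, fell by 1.31 (adjusted p = 0.000201). Abcb1a, a P-glycoprotein efflux pump, rose by 1.31 (SE 0.21, adjusted p = 0.00229).

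**Figure D3:**
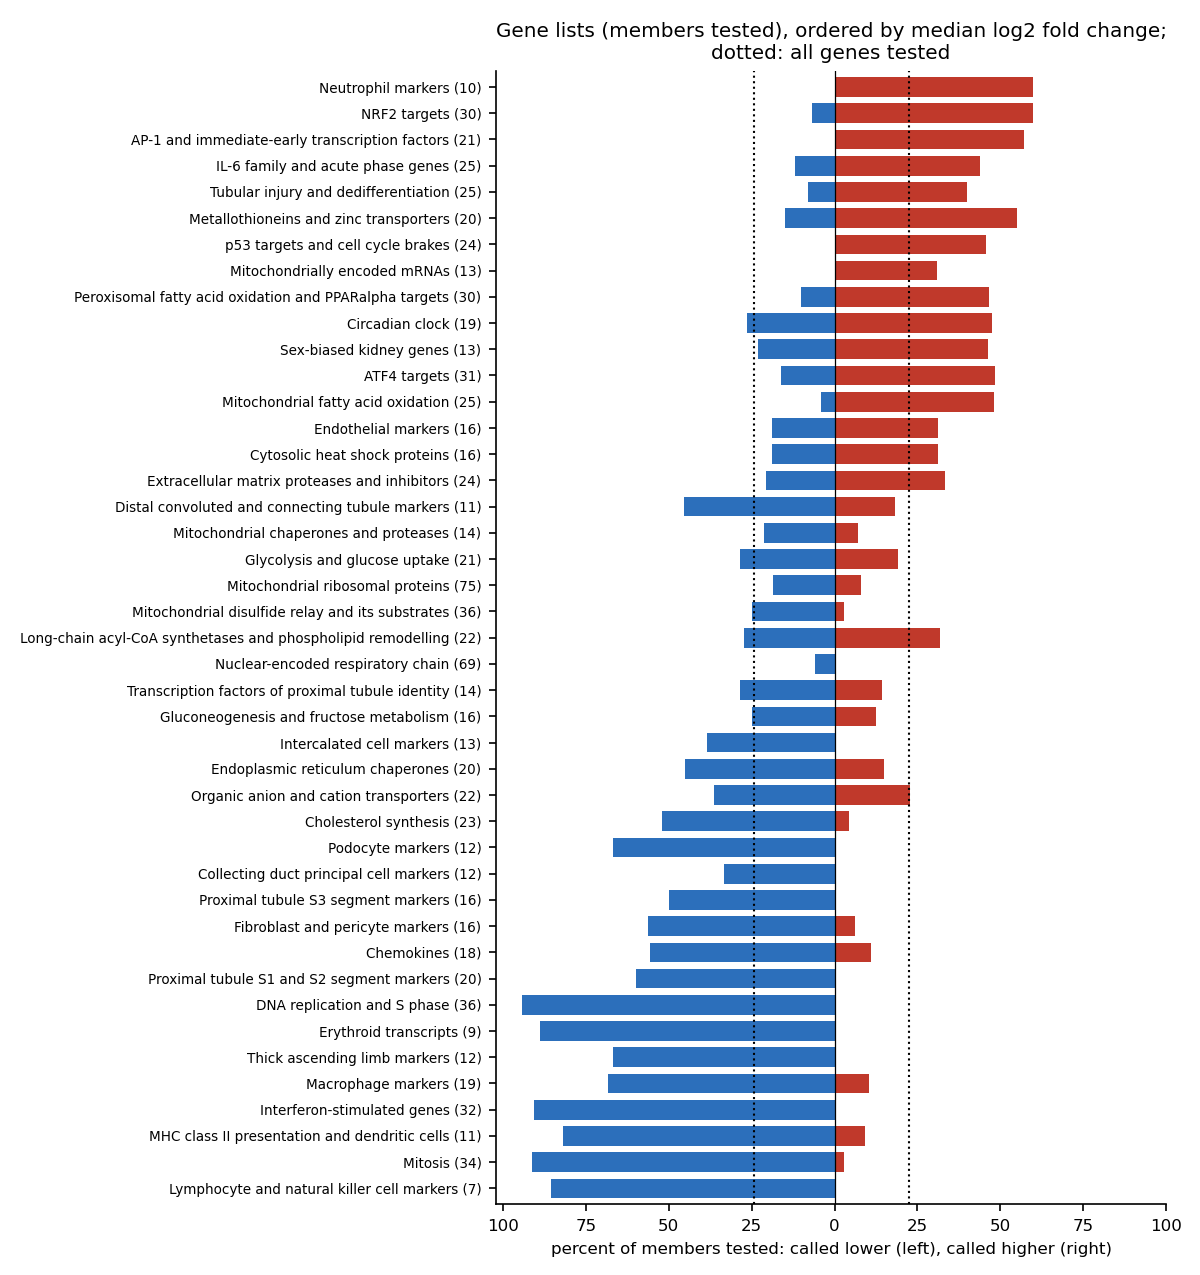
Percent of the tested members of each of 43 gene lists that were called higher (red, to the right) or lower (blue, to the left) in PT-KO+I/R, ordered by median log2 fold change, with the number tested in brackets. Dotted lines mark the shares over all genes, 22.5% higher and 24.4% lower, and the lists of cell division, interferon response and lymphocytes reach far past the line on the lower side.

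Genes of tubular injury were higher in part. Of 25 tested, 10 were called higher (16 without Ctrl+I/R library 2) and 2 lower (5 without Ctrl+I/R library 4, 1 without PT-KO+I/R library 4), with a median of 0.78 (0.51 without Ctrl+I/R library 4). Krt20, a keratin that damaged tubule cells switch on, measured 35.6, 54.8 and 9.25 CPM in Ctrl+I/R and 1008, 909 and 1323 CPM in PT-KO+I/R (log2 fold change 5.02, SE 0.59, adjusted p = 0.00065). Control library 4 was the lowest, and the groups were far apart. Sox9, a transcription factor of repairing tubule cells, measured 14.3, 17.6 and 4.79 CPM and 41.7, 58.9 and 40.9 CPM (log2 fold change 1.94, SE 0.40, adjusted p = 0.00585). Ccn2, a matricellular growth factor, measured 106, 157 and 85.9 CPM and 473, 366 and 491 CPM (log2 fold change 1.93, SE 0.23, adjusted p = 0.000698). Spp1 (osteopontin) measured 15692, 22405 and 9144 CPM and 17443, 17949 and 17588 CPM and did not pass the test (log2 fold change 0.17, SE 0.31, adjusted p = 0.685). The 2 lower members, Vcam1 and Vim, were singled out after their values were seen: Vcam1, an adhesion molecule of endothelium and of failed tubule repair, fell by 1.35 on the log2 scale (adjusted p = 0.00811), and the intermediate filament Vim fell by 0.96 (adjusted p = 0.0112, but 0.0542 without PT-KO+I/R library 4).

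Stress-induced transcription factors and p53 targets were called in 1 direction. Of 21 AP-1 and immediate-early genes 12 were called higher and 0 lower, with a median of 0.89 (1.35 without Ctrl+I/R library 2), but only 5 with total counts, 7 without Ctrl+I/R library 1, and 5 without PT-KO+I/R library 3 or library 4. Fosl1, an AP-1 subunit, measured 2.83, 3.55 and 0.656 CPM and 23.3, 41.9 and 47.6 CPM (log2 fold change 3.96, SE 0.49, adjusted p = 0.000738). Nr4a1, an immediate-early nuclear receptor, measured 7.29, 10.6 and 4.73 CPM and 18.5, 42.4 and 25.9 CPM (log2 fold change 1.94, SE 0.36, adjusted p = 0.00397). The classical members Fos and Jun did not pass the test, with 8.54, 19.3 and 3.41 CPM against 6.74, 22.3 and 12 CPM for Fos and 88.8, 135 and 43.9 CPM against 69, 102 and 87.7 CPM for Jun. An AP-1 site, read as TGANTCA on either strand, was found in 0 of 16 promoters of the list and in 4.43% of all promoters. Of 24 p53 targets and cell cycle brakes 11 were called higher and 0 lower, with a median of 0.62. Cdkn1a (p21), the inhibitor that holds cells before S phase, measured 25.8, 41.6 and 15.8 CPM and 252, 192 and 264 CPM (log2 fold change 3.09, SE 0.33, adjusted p = 0.000452). Trp53inp1 measured 48.1, 48.9 and 44 CPM and 220.4, 275 and 327 CPM (log2 fold change 2.54, SE 0.16, adjusted p = 0.0001). Each PT-KO+I/R library of both genes was more than 4-fold above the highest control library. Plk3 and Perp rose by 1.85 and 1.31 (adjusted p = 0.000199 and 0.00026).

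Genes of cell division were lower with few exceptions. Of 36 DNA replication and S phase genes 34 were called lower and 0 higher, with a median of -1.59, and of 34 mitosis genes 31 were called lower and 1 higher, with a median of -2.24. Among them 2 S phase and 3 mitosis genes had under 10 counts in every PT-KO+I/R library. These were tested only through their counts in Ctrl+I/R and had to be lower. With at least 10 counts asked in every library 31 of 33 S phase and 22 of 25 mitosis genes were called lower and 0 higher. The 1 higher call, Kif23, was singled out after its values were seen (log2 fold change 0.83, adjusted p = 0.0447), and it was lost without any 1 of Ctrl+I/R libraries 1 and 4 and PT-KO+I/R libraries 3 and 4 (adjusted p up to 0.161) and with total counts (0.108), upper quartile factors (0.0672) or limma voom (0.0532). Summed over the list, S phase genes measured 803, 1158 and 1109 CPM in Ctrl+I/R and 384, 364 and 378 CPM in PT-KO+I/R. Pclaf, a clamp-associated factor of replication, measured 13.4, 16.8 and 13.8 CPM and 0.175, 0.228 and 0.0665 CPM (log2 fold change -6.42, SE 0.32, adjusted p = 5e-05). Cdc6, which loads the replicative helicase, measured 7.43, 14.7 and 12.2 CPM and 0.263, 0.639 and 0.665 CPM (log2 fold change -4.37, SE 0.39, adjusted p = 0.000265). Top2a, the topoisomerase that untangles chromosomes before mitosis, measured 42.5, 41.4 and 33 CPM and 3.15, 1.74 and 1.46 CPM (log2 fold change -4.25, SE 0.26, adjusted p = 0.0001), and the proliferation antigen Mki67 measured 43.4, 39.3 and 35.2 CPM and 3.94, 2.24 and 2.59 CPM (log2 fold change -3.78, SE 0.21, adjusted p = 8.15e-05). For both, the lowest control library was more than 8-fold above the highest PT-KO+I/R library. E2f1, a transcription factor of the S phase program, fell by 3.45 on the log2 scale (adjusted p = 0.000353), and its relative E2f8 had 86, 128 and 60 counts against 2, 3 and 2 (ratio 34, exact 95% interval 16.3 to 85.4).

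Promoters of these genes are known to carry E2F sites, read here as TTTCCCGC or TTTGGCGC, and the cell cycle homology region, read as TTTGAA, both searched on either strand in the 250 bases before the RefSeq start. An E2F site was found in 6 of 30 S phase genes with a promoter (20%) and in 2.45% of 11103 promoters of tested genes, and the homology region in 10 of 29 mitosis genes (34.5%) and in 10.9% of promoters. Genes called lower as a whole carried them at 2.16% and 12.4%, close to all genes. The 160 bases nearest the start of 1 replication and 2 mitosis genes are given, with the matches in that stretch in capitals (GRCm38.p6, on the strand of the gene, up to the base before its start), as examples of members that fell together. They lie at chr1:128359706-128359865 for Mcm6, chr7:135716380-135716539 for Mki67 and chr11:99024190-99024349 for Top2a.
Mcm6: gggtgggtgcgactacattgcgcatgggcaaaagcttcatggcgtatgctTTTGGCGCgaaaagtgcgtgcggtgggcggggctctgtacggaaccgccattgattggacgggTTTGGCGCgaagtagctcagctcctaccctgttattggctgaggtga
Mki67: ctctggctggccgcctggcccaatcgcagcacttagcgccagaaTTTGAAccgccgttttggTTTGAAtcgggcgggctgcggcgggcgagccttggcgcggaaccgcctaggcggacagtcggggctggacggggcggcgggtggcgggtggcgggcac
Top2a: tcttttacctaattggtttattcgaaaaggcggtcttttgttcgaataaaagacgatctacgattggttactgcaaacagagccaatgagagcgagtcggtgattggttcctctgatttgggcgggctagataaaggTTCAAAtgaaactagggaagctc
In Top2a the match shown is on the opposite strand and is therefore printed as its reverse complement, and a second match of the 250 bases searched lies outside the stretch shown. Mcm6, a subunit of the helicase, fell by 1.35 on the log2 scale (SE 0.18, adjusted p = 0.000932).

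Interferon-stimulated genes, which cells switch on in response to viral RNA and interferons, were lower in PT-KO+I/R nearly throughout the list. Of 32 tested 29 were called lower and 0 higher, with a median of -1.90. Among the 32, 2 had under 10 counts in every PT-KO+I/R library and were tested only through their counts in Ctrl+I/R. Ifit3 measured 30, 42 and 21 CPM and 3.50, 2.83 and 4.06 CPM (log2 fold change -3.17, SE 0.28, adjusted p = 0.000265). Oas1a, a sensor of double-stranded RNA, measured 3.44, 5.14 and 3.02 CPM and 0.613, 0.457 and 0.199 CPM (log2 fold change -3.20, SE 0.43, adjusted p = 0.00101). The immunoproteasome subunit Psmb9 and the antiviral Mx1 fell by 2.72 and 2.67 on the log2 scale (adjusted p = 0.00201 and 0.00304). Isg15, the ubiquitin-like modifier, fell by 1.59 (SE 0.26, adjusted p = 0.00221). The response element that the interferon-activated complex binds, read as 2 copies of GAAA with any 2 bases between them, on either strand, was found before the start of 13 of 23 list genes with a promoter (56.5%), against 2.7% of all promoters, 3.69% of genes called lower and 1.99% of genes called higher. The promoters of Ifit3 (chr19:34583369-34583528, GRCm38.p6) and Isg15 (chr4:156200819-156200978) are shown with the element in capitals, since they carry 2 and 3 copies.
Ifit3: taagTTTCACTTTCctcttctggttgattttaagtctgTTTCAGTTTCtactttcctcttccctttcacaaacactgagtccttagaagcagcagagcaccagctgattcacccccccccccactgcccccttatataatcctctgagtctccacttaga
Isg15: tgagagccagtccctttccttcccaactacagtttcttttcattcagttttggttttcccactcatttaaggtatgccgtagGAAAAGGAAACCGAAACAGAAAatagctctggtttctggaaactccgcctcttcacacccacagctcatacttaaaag
In Isg15 the copies overlap and form 1 run of capitals, and in Ifit3 both lie on the opposite strand.

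Most macrophage markers were lower in PT-KO+I/R, and several genes of lymphocytes and antigen presentation were lower and of neutrophils higher. Of 19 macrophage markers 13 were called lower and 2 higher, with a median of -1.85. The stricter filter of at least 10 counts in every library left 13 tested, with 9 called lower and 2 higher. Cx3cr1, the fractalkine receptor of resident macrophages, measured 17.2, 9.07 and 10.6 CPM and 0, 0.411 and 0.133 CPM (log2 fold change -5.77, SE 0.57, adjusted p = 0.000353). Adgre1 (F4/80) measured 10.4, 5.94 and 8.40 CPM and 0.525, 0.457 and 0.199 CPM (log2 fold change -4.37, SE 0.38, adjusted p = 0.000251), and Ccr2, the chemokine receptor of recruited monocytes, measured 38.7, 17.5 and 8.99 CPM and 1.31, 1.64 and 2.13 CPM (log2 fold change -3.67, SE 0.54, adjusted p = 0.00154). In all 3 genes control library 1 was the highest and the groups did not overlap. The 2 higher members, named after their values were seen, were Cd14 (30.9, 32.1 and 11.5 CPM against 103, 199 and 147 CPM, adjusted p = 0.00168), a receptor for bacterial lipopolysaccharide that injured tubule cells also make, and the lysosomal protein Cd68 (18.7, 14.5 and 14.7 CPM against 20.6, 29.4 and 30.9 CPM, adjusted p = 0.0117). Of 17 genes of MHC class II presentation and dendritic cells 11 had enough counts to be tested, and 9 of these were called lower and 1 higher (0 without any 1 of Ctrl+I/R library 4 and PT-KO+I/R libraries 2, 3 and 4). Of the 11, 2 had under 10 counts in every PT-KO+I/R library, Ciita among them. They were tested only through their counts in Ctrl+I/R and had to be lower. With at least 10 counts asked in every library 7 of 9 tested were called lower and 1 higher. The 6 untested members together had 107, 58 and 28 counts in Ctrl+I/R and 8, 13 and 9 in PT-KO+I/R. The higher call was Irf8 (log2 fold change 0.65, adjusted p = 0.0415, but 0.134 with total counts), a transcription factor of dendritic cells and monocytes. Ciita, the master activator of MHC class II genes, measured 24.3, 15.7 and 4.99 CPM and 0, 0.365 and 0.332 CPM (log2 fold change -5.80, SE 0.78, adjusted p = 0.00102), and the invariant chain Cd74 measured 118, 42.4 and 45 CPM and 18.4, 15 and 14.4 CPM (log2 fold change -2.11, adjusted p = 0.00376). Cd74 stayed well above 0 in PT-KO+I/R, whereas Ciita was near 0.

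Of 18 lymphocyte and natural killer cell markers only 7 had enough counts to be tested, and 6 of these were called lower and 0 higher. Of the 7, 4 had under 10 counts in every PT-KO+I/R library. These were tested only through their counts in Ctrl+I/R and had to be lower. The count of calls therefore describes these members and not the list. The 11 untested members together had 277, 224 and 38 counts in Ctrl+I/R and 5, 15 and 11 in PT-KO+I/R. Gzmb, a granzyme of cytotoxic cells, had 127, 54 and 11 counts in Ctrl+I/R and 0 in each PT-KO+I/R library, so it was at least 55.6-fold higher in Ctrl+I/R (against a floor of 3 counts over the group). Cd8a, the co-receptor of cytotoxic T cells, measured 7.38, 6.15 and 3.81 CPM and 0.0875, 0 and 0.266 CPM (log2 fold change -5.68, SE 0.66, adjusted p = 0.00062). Of 16 neutrophil markers 10 had enough counts to be tested, and 6 of these were called higher (3 without PT-KO+I/R library 4) and 0 lower. The filter favoured this direction for members low in Ctrl+I/R, among them 1 with under 10 counts in each of its libraries. With at least 10 counts asked in every library 3 of 6 tested were called higher. The 6 untested members together had 12, 11 and 7 counts in Ctrl+I/R and 5, 8 and 12 in PT-KO+I/R. Retnlg, a secreted protein of mature neutrophils, measured 1.16, 1.96 and 0.722 CPM and 11.3, 11.6 and 16.7 CPM (log2 fold change 3.34, SE 0.35, adjusted p = 0.000416). Ngp, a granule protein, measured 0.0929, 0.0530 and 0.394 CPM and 1.05, 2.47 and 3.06 CPM (log2 fold change 3.68, SE 0.68, adjusted p = 0.00377), and the decoy receptor Il1r2 measured 1.35, 1.96 and 0.459 CPM and 6.83, 8.59 and 10.6 CPM (adjusted p = 0.00177). All 3 rose without overlap. Csf3r and Mmp9, which neutrophils also express, did not pass the test, with 5.39, 11.7 and 3.02 CPM against 4.46, 6.76 and 5.32 CPM for Csf3r and 1.63, 5.83 and 1.31 CPM against 3.85, 5.25 and 5.52 CPM for Mmp9. Mmp9 passed as higher without Ctrl+I/R library 2 (1.72, adjusted p = 0.00296). Erythroid transcripts, a measure of retained blood, were lower: 8 of 9 tested were called lower (5 without PT-KO+I/R library 3, 6 of 7 with at least 10 counts in every library), and their sum was 156 to 324 CPM in Ctrl+I/R and 86.2 to 96.7 CPM in PT-KO+I/R. Whether the amount of blood in the tissue bears on the white blood cell markers was not tested.

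**Figure D4:**
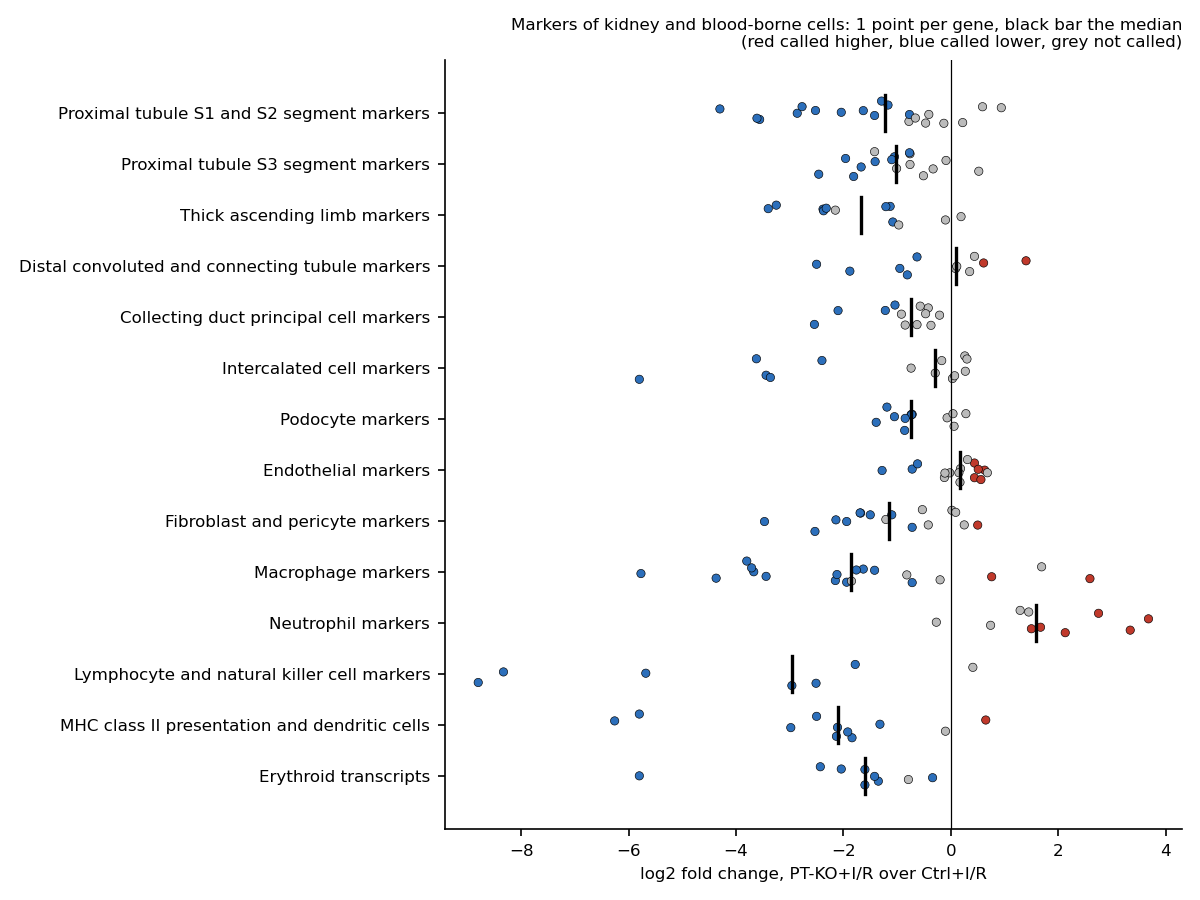
Log2 fold change of PT-KO+I/R over Ctrl+I/R of each marker (points; red called higher, blue called lower, grey not called) in 14 lists of kidney and blood-borne cells, with a black bar at the list's median. Among the tested members shown, lymphocyte markers (7 of 18) lie lowest, with a median of -2.96, and neutrophil markers (10 of 16) highest, with 1.58, both after a filter that favours members high in 1 group; Gzmb and Gzma, at 0 in PT-KO+I/R, are drawn at fitted values that depend on the model's prior count.

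Secreted signals of inflammation had calls in both directions. Of 23 chemokines 18 had enough counts to be tested, and 10 were called lower and 2 higher (1 without Ctrl+I/R library 1 or 4, 0 without PT-KO+I/R library 3 or 4), or 6 and 1 of 12 with at least 10 counts in every library. The 5 untested chemokines together had 71, 48 and 13 counts in Ctrl+I/R and 6, 17 and 11 in PT-KO+I/R. The higher calls were Cxcl2 and Cxcl13, at log2 fold changes of 2.14 and 1.31. Ccl12, a monocyte attractant, had 92, 66 and 29 counts in Ctrl+I/R and 0 in each PT-KO+I/R library, at least 54.2-fold higher in Ctrl+I/R. Ccl2 measured 12.3, 7.69 and 4.53 CPM and 1.23, 1.78 and 2.33 CPM (log2 fold change -2.19, SE 0.40, adjusted p = 0.00371), and Ccl28, an epithelial chemokine, measured 7.80, 15.6 and 18.2 CPM and 1.66, 1.10 and 2.13 CPM (log2 fold change -3.11, SE 0.39, adjusted p = 0.00077). All their PT-KO+I/R libraries were below 3 CPM. Of 25 tested genes of the IL-6 family and the acute phase 11 were called higher and 3 lower, with a median of 0.85. The fibrinogen chains, which tubule cells make after injury, rose together: Fgb measured 197, 229.7 and 75.5 CPM and 462, 1250.3 and 612 CPM (log2 fold change 2.21, SE 0.48, adjusted p = 0.00755), and Fga and Fgg rose by 2.09 and 2.00 (adjusted p = 0.00574 and 0.00491). Serpina3n, a protease inhibitor of the acute phase, measured 9.66, 12.9 and 4.59 CPM and 41.4, 88.3 and 68.1 CPM (log2 fold change 2.86, SE 0.39, adjusted p = 0.00109). C3, the central complement component, was lower with the receptors Lifr and Il11ra1, and went from 291, 288 and 164 CPM to 36.3, 68 and 20.8 CPM (log2 fold change -2.56, SE 0.42, adjusted p = 0.00229). Il6 itself measured 2.09, 5.36 and 0.525 CPM and 3.59, 13.3 and 13.8 CPM and did not pass the test (log2 fold change 1.94, SE 0.72, adjusted p = 0.0566). Il6 passed as higher with limma voom (adjusted p = 0.0492), with no filter on low counts (0.0164), in a fit to all 12 libraries (0.0359), and without Ctrl+I/R library 2 (0.00972) or PT-KO+I/R library 2 (0.0317).

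Fibroblast markers, fibrillar collagens among them, were lower in part. Of 16 fibroblast and pericyte markers 9 were called lower, with a median of -1.16, and 1 higher (0 without any 1 library other than Ctrl+I/R library 2), the basement membrane collagen Col4a1. Col1a1, the main fibrillar collagen of scar, measured 132, 145 and 112 CPM and 17.7, 11.4 and 6.38 CPM (log2 fold change -3.47, SE 0.32, adjusted p = 0.000295), and Col3a1 measured 259, 326 and 227 CPM and 77.4, 61.6 and 45.7 CPM (log2 fold change -2.14, SE 0.22, adjusted p = 0.000378). Fn1 (fibronectin) measured 99.1, 84.5 and 91.2 CPM and 24.1, 27.3 and 20.3 CPM (log2 fold change -1.94, SE 0.13, adjusted p = 0.00013). The groups did not overlap for any of these. Pdgfrb, which defines pericytes, measured 61.4, 69.2 and 48.8 CPM and 54.7, 39.6 and 39.958 CPM and did not pass the test (log2 fold change -0.42, SE 0.17, adjusted p = 0.0755). Pdgfrb passed as lower with total counts, upper quartile factors and a fit to all 12 libraries (adjusted p = 0.0235, 0.0465 and 0.0386). It also passed without Ctrl+I/R library 4 or PT-KO+I/R library 2 (0.0284 and 0.0297). Among 24 matrix proteases and inhibitors 8 were called higher (4 without Ctrl+I/R library 1 or PT-KO+I/R library 4, 5 without PT-KO+I/R library 3) and 5 lower (1 to 3 without any 1 of Ctrl+I/R library 1 and PT-KO+I/R libraries 2, 3 and 4), and their median of 0.14 turned to -0.07 with total counts and was 0.34 without Ctrl+I/R library 2.

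Markers of the later nephron segments were lower in part, and for several of them Ctrl+I/R library 2 lay near the PT-KO+I/R libraries. Of 12 thick ascending limb markers 8 were called lower (4 without PT-KO+I/R library 4) and 0 higher, with a median of -1.68. Slc12a1 (NKCC2), the salt carrier of this segment, measured 506, 60.9 and 747 CPM and 51.8, 39.5 and 33.7 CPM (log2 fold change -3.40, SE 0.76, adjusted p = 0.00824). Cldn10, a tight junction protein, measured 98.3, 65.6 and 123 CPM and 18.9, 14.7 and 21.9 CPM (log2 fold change -2.37, SE 0.25, adjusted p = 0.000419), while Umod (uromodulin) measured 2658, 1326 and 2988 CPM and 2192, 1918 and 2389 CPM and did not pass the test (adjusted p = 0.791). For Slc12a1, control library 2 was just above PT-KO+I/R library 2, whereas Cldn10 separated the groups by a wide gap. Of 11 distal convoluted and connecting tubule markers 2 were called higher and 5 lower (3 without PT-KO+I/R library 3, 2 without PT-KO+I/R library 4), and their median of 0.09 turned to -0.11 with total counts and lay between -0.56 and 0.36 as single libraries were left out. Trpm6, a magnesium channel, rose from 14.6, 16.7 and 9.52 CPM to 28.6, 40.6 and 39 CPM (log2 fold change 1.40, SE 0.22, adjusted p = 0.00201), Sgms2 was the other higher call at 0.61, and the calcium channel Trpv5 fell by 0.81 (SE 0.15, adjusted p = 0.00331). Of 12 principal cell markers 4 were called lower (7 with total counts, 9 without Ctrl+I/R library 2) and 0 higher, with a median of -0.74 (-0.38 without Ctrl+I/R library 4), and Aqp2, the vasopressin-regulated water channel, measured 46.8, 27.2 and 134 CPM and 69.9, 28.4 and 36.2 CPM (adjusted p = 0.384). Of 13 intercalated cell markers 5 were called lower (3 of 11 with at least 10 counts in every library) and 0 higher, with a median of -0.29 (-0.43 to -0.21 with 1 library left out, -0.49 with total counts). Aqp6 measured 31, 17 and 40.5 CPM and 2.63, 2.65 and 2.86 CPM (log2 fold change -3.44, SE 0.32, adjusted p = 0.000316), and Slc4a1, the anion exchanger of intercalated and red cells, measured 14.7, 1.33 and 29.5 CPM and 0.0875, 0.365 and 0.266 CPM (log2 fold change -5.80, SE 1.16, adjusted p = 0.00522, but 0.15 with limma voom).

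Podocyte markers were lower in part, and the shares of endothelial markers called were near those of all genes. Of 12 podocyte markers 8 were called lower and 0 higher (1 without Ctrl+I/R library 4), with a median of -0.74. Nphs1 (nephrin), the slit diaphragm protein, measured 26.5, 19.7 and 21.9 CPM and 11, 10.3 and 8.64 CPM (log2 fold change -1.19, SE 0.16, adjusted p = 0.00112). Of 16 endothelial markers 5 were called higher (3 without any 1 of Ctrl+I/R library 1 and PT-KO+I/R libraries 3 and 4) and 3 lower, with a median of 0.18. With total counts 1 was called higher and 3 lower, and the median was -0.03. Tek, the angiopoietin receptor, measured 49.970, 38 and 45.9 CPM and 22.5, 16 and 17 CPM (log2 fold change -1.28, SE 0.16, adjusted p = 0.000876). Kdr, the main receptor of VEGF, measured 72.5, 50.8 and 69.4 CPM and 101.4, 96.5 and 100.9 CPM (log2 fold change 0.63, SE 0.14, adjusted p = 0.00782). Tek fell and Kdr rose, each without overlap.

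Genes of fatty acid oxidation were called higher more often than lower, and genes of cholesterol synthesis lower more often than higher. Of 30 peroxisomal oxidation and PPARα target genes 14 were called higher and 3 lower (5 with total counts, 8 without Ctrl+I/R library 2, 1 without PT-KO+I/R library 3 or 4), with a median of 0.51. Their summed level was 4994 to 7946 CPM in Ctrl+I/R and 18046 to 18611 CPM in PT-KO+I/R, a narrow range in the second group. Much of the rise of this sum came from Plin2, Pdk4 and Ehhadh. The 13 members that did not pass lay on both sides of 0, among them Fabp1 (-1.73), Cyp4a14 (-1.39) and Cyp4a32 (0.72). The lower members included Acox2 and Scp2, which serve bile acid intermediates and sterol carriage, at log2 fold changes of -1.30 and -0.49, and both calls were lost without PT-KO+I/R library 3 or 4 (adjusted p up to 0.0862 and 0.0843). Angptl4, a lipase inhibitor, measured 56.7, 54.9 and 31.5 CPM and 273, 275 and 274 CPM (log2 fold change 2.52, SE 0.22, adjusted p = 0.00024). Ehhadh, the bifunctional enzyme of the peroxisome, measured 511, 329 and 967 CPM and 2913, 2727 and 2629.7 CPM (log2 fold change 2.19, SE 0.36, adjusted p = 0.00224). Both genes rose without overlap. Of 25 mitochondrial fatty acid oxidation genes 12 were called higher and 1 lower (3 with total counts, 6 without Ctrl+I/R library 2), with a median of 0.20 that fell to 0.00 with total counts and was 0.32 without Ctrl+I/R library 4. Cpt1a, which admits long-chain fatty acids to the mitochondrion, measured 449, 322 and 349 CPM and 1076, 1001 and 1007 CPM (log2 fold change 1.46, SE 0.15, adjusted p = 0.000438). Acadm, the medium-chain dehydrogenase and the 1 lower member, was singled out after its values were seen and measured 642, 433 and 962 CPM against 377, 415 and 401 CPM (log2 fold change -0.77, adjusted p = 0.0401), a call lost without any 1 library other than Ctrl+I/R library 2 (adjusted p up to 0.112).

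Of 22 acyl-CoA synthetase and phospholipid remodelling genes 7 were called higher and 6 lower (3 without PT-KO+I/R library 4), with a median of -0.10 (-0.19 to 0.00 with 1 library left out). Acsl4, which favours arachidonic acid and is required for ferroptosis in several cell types, measured 125, 183 and 110.2 CPM and 397, 376 and 361 CPM, and Acsl3, its relative that favours oleic acid, measured 33.8, 32.9 and 50.9 CPM and 17.8, 16.6 and 21.6 CPM. They moved in opposite directions without overlap (log2 fold changes 1.44 and -1.07, adjusted p = 0.000936 and 0.00355). Aifm2 (FSP1), which regenerates reduced coenzyme Q, rose from 19.5, 21.6 and 23.7 CPM to 47.7, 39.8 and 36.8 CPM (log2 fold change 0.94, SE 0.13, adjusted p = 0.00131). Gpx4, the peroxidase that reduces lipid peroxides, measured 361, 354 and 449.9 CPM and 291, 335 and 316 CPM and did not pass the test (log2 fold change -0.30, SE 0.13, adjusted p = 0.0921). Gpx4 passed as lower with total counts (-0.51, adjusted p = 0.0143) and with upper quartile factors (-0.40, adjusted p = 0.0335). Of 23 cholesterol synthesis genes 12 were called lower and 1 (Hsd17b7) higher (2 without PT-KO+I/R library 2), with a median of -0.62 (-0.32 without Ctrl+I/R library 4). Sqle, an oxygen-dependent step of the pathway, measured 135, 192 and 162 CPM and 35, 39.2 and 33.1 CPM (log2 fold change -2.19, SE 0.15, adjusted p = 0.00013), and Dhcr7, the last step, measured 19.9, 20.4 and 32.8 CPM and 6.13, 6.12 and 6.38 CPM (log2 fold change -1.97, SE 0.22, adjusted p = 0.000521). A sterol regulatory element, read as TCACNCCAC on either strand, was found in 1 of 16 promoters of the list (6.25%) and in 1.04% of all promoters.

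The disulfide relay in which ALR acts and the nuclear-encoded respiratory chain had 1 higher call between them. The mRNAs encoded in mitochondrial DNA had higher calls alone. How many genes were called lower varied with the list and the scaling. Of 36 genes of the disulfide relay and its substrates 1 (Timm10) was called higher and 9 lower (13 with total counts, 4 without PT-KO+I/R library 3, 2 without PT-KO+I/R library 4), or 25% against 24.4% of all genes. The median was -0.09 (-0.17 to -0.02 with 1 library left out, -0.30 with total counts). Chchd4 (Mia40), the direct partner of ALR, measured 41.1, 45.7 and 39.6 CPM and 47.3, 45.9 and 41.9 CPM (log2 fold change 0.10, SE 0.10, adjusted p = 0.465). Coa4, a cytochrome oxidase assembly factor imported by the relay, measured 5.85, 5.04 and 4.99 CPM and 1.58, 2.37 and 1.73 CPM (log2 fold change -1.46, SE 0.24, adjusted p = 0.00248), and Chchd6, a subunit that shapes cristae, measured 14.3, 13.5 and 17.1 CPM and 8.40, 8.72 and 6.65 CPM (log2 fold change -0.92, SE 0.17, adjusted p = 0.00376). Both were lower in each PT-KO+I/R library. Of 69 nuclear-encoded respiratory chain genes 4 were called lower and 0 higher, with a median of -0.10 (-0.25 to -0.03 with 1 library left out, -0.30 with total counts). The lower calls numbered 22 with total counts, 11 with upper quartile factors, 12 in a fit to all 12 libraries, 25 without Ctrl+I/R library 2, and 1 without PT-KO+I/R library 3 or 4. Ndufb10, of complex I, measured 117, 88.9 and 133 CPM and 70.8, 74.1 and 71.4 CPM (log2 fold change -0.65, SE 0.15, adjusted p = 0.00863). Of 75 mitochondrial ribosomal proteins 6 were called higher and 14 lower, with a median of -0.09 (-0.14 to -0.07 with 1 library left out, -0.30 with total counts). The higher and lower calls were 2 and 33 with total counts, with 8 lower by DESeq2 or with no filter on low counts, 3 and 24 with upper quartile factors, and as few as 3 and 6 with 1 library left out. All genes gave 3725 lower calls of 15281 after TMM and 5080 with total counts, and the list was not tested against them. Mrps18b, of the small subunit, measured 36.7, 43.1 and 33.9 CPM and 77.4, 70.9 and 75.5 CPM (log2 fold change 0.98, SE 0.11, adjusted p = 0.000617), and Mrpl42 measured 77.5, 62.9 and 92 CPM and 41, 44 and 39.958 CPM (log2 fold change -0.89, SE 0.14, adjusted p = 0.0021). Among 13 mRNAs encoded in mitochondrial DNA 4 were called higher (8 with DESeq2, 7 with limma voom, 2 with total counts or upper quartile factors, 6 without Ctrl+I/R library 1, and 2 without any 1 of Ctrl+I/R library 4 and PT-KO+I/R libraries 2 and 4) and 0 lower, with a median of 0.54. Of 14 mitochondrial chaperones and proteases 1 was called higher (2 without Ctrl+I/R library 4, 3 without PT-KO+I/R library 3) and 3 lower (5 with total counts), and their median of 0.06 turned to -0.14 with total counts. Grpel1, the exchange factor of the mitochondrial HSP70, rose from 83.1, 73.6 and 105 CPM to 156, 139 and 153 CPM (log2 fold change 0.78, SE 0.14, adjusted p = 0.00347), and the chaperonin partner Hspe1 fell by 0.67 (adjusted p = 0.0034).

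Targets of NRF2, which answers oxidants and electrophiles, were mostly higher. Of 30 tested 18 were called higher and 2 lower (1 without any 1 library other than Ctrl+I/R library 2), with a median of 1.004, and their summed level was 10962 to 14973 CPM in Ctrl+I/R and 22061 to 25505 CPM in PT-KO+I/R. Much of this sum and of its rise is Fth1, whose values follow. Gclc and Gclm were among the 10 members that did not pass (log2 fold changes 0.43 and 0.41). The lower members were Me1 and Ephx1, at log2 fold changes of -0.30 and -1.02, and the call of Me1 was lost without any 1 library other than Ctrl+I/R library 2 (adjusted p up to 0.135) and in a fit to all 12 libraries (0.319). Srxn1, which repairs over-oxidized peroxiredoxins, measured 104, 167 and 103 CPM and 678, 739.6 and 869 CPM (log2 fold change 2.61, SE 0.22, adjusted p = 0.000228). Blvrb, a reductase of heme breakdown, measured 14.4, 13.8 and 14.6 CPM and 63.1, 48.9 and 72.8 CPM (log2 fold change 2.11, SE 0.16, adjusted p = 0.000173). Fth1, the iron-storing heavy chain of ferritin, measured 4603, 6895 and 4466 CPM and 11539, 13676 and 12622 CPM (log2 fold change 1.24, SE 0.22, adjusted p = 0.00302). Each PT-KO+I/R library exceeded each control library for all 3. Gsta1, a glutathione transferase, measured 3.53, 7.27 and 1.38 CPM and 33.3, 20.5 and 61.6 CPM (log2 fold change 3.22, SE 0.58, adjusted p = 0.00329). An antioxidant response element, read as TGACNNNGC on either strand, was found in 4 of 25 promoters of the list (16%) and in 11.9% of all promoters.

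Targets of ATF4, the transcription factor of the integrated stress response, were called higher 15 times in 31 and lower 5 times (3 without PT-KO+I/R library 3 or 4), with a median of 0.40 (0.18 with total counts, 0.22 without Ctrl+I/R library 4). Chac1, which degrades glutathione, measured 2.74, 2.28 and 0.853 CPM and 17.4, 14 and 10.2 CPM (log2 fold change 2.79, SE 0.38, adjusted p = 0.00115). Psat1, of serine synthesis, measured 76.5, 99.2 and 83.7 CPM and 260.3, 215 and 198 CPM (log2 fold change 1.38, SE 0.15, adjusted p = 0.000452), and Atf4 itself measured 109, 123 and 87.7 CPM and 245, 233 and 259.8 CPM (log2 fold change 1.20, SE 0.14, adjusted p = 0.000612). Slc7a11 (xCT), the cystine importer that both NRF2 and ATF4 can induce, measured 1.39, 2.28 and 0.722 CPM and 4.03, 22.5 and 13.2 CPM (log2 fold change 3.17, SE 0.63, adjusted p = 0.00508). All 4 rose without overlap, and the PT-KO+I/R libraries of Slc7a11 varied the most. The 5 lower members, named after their values were seen, were Shmt2, Mthfd2, Aldh1l2 and Pck2, which are mitochondrial enzymes of one-carbon metabolism and of phosphoenolpyruvate synthesis, and the lipoprotein receptor Vldlr. The CEBP-ATF response element, read as TGATGNAA on either strand, was found in 8 of 26 promoters of the list (30.8%), against 1.97% of all promoters and 1.95% of those of genes called higher. The promoters of Slc7a11 (chr3:50443615-50443773) and Chac1 (chr2:119350992-119351228) carry 2 and 1 copies, in capitals, and are shown up to 2 and 14 bases before the RefSeq start.
Slc7a11: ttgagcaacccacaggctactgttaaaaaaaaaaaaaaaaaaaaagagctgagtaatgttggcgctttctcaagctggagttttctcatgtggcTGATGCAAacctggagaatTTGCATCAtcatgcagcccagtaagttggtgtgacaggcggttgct
Chac1: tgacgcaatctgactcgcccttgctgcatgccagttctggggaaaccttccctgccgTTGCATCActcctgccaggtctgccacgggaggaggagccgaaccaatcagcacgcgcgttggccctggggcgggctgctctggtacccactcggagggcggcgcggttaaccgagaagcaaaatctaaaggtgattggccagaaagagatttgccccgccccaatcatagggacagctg
Of 20 endoplasmic reticulum chaperones 3 were called higher (1 with total counts, without Ctrl+I/R library 1 or without PT-KO+I/R library 3) and 9 lower (5 without PT-KO+I/R library 2, 3 without PT-KO+I/R library 4), with a median of -0.30. Calr (calreticulin) fell from 796, 853 and 891 CPM to 397, 524 and 481 CPM (log2 fold change -0.86, SE 0.14, adjusted p = 0.00226), Dnajb9 rose by 1.14 (adjusted p = 0.000455), and Hspa5 (BiP) measured 617, 799 and 840.3 CPM and 619.8, 629 and 609 CPM and did not pass the test (adjusted p = 0.144). With total counts and without Ctrl+I/R library 1 Hspa5 passed as lower, at -0.49 and -0.42 (adjusted p = 0.0306 and 0.0479). Of 16 cytosolic heat shock proteins 5 were called higher (3 with total counts or without any 1 of Ctrl+I/R library 1 and PT-KO+I/R libraries 2, 3 and 4) and 3 lower (1 without PT-KO+I/R library 3 or 4), and their median of 0.17 turned to -0.03 with total counts. Bag3, an HSP70 co-chaperone, rose from 29.3, 36 and 24.9 CPM to 62.4, 67.2 and 67.3 CPM (log2 fold change 1.13, SE 0.14, adjusted p = 0.000776), and Chordc1, an HSP90 partner, fell from 62.8, 76.1 and 72.3 CPM to 24.9, 25.8 and 26.3 CPM (log2 fold change -1.45, SE 0.11, adjusted p = 0.000168).

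Metallothioneins, small proteins that bind zinc and copper, rose several-fold. Of 20 metallothionein and zinc transporter genes 11 were called higher and 3 lower, with a median of 0.63. Mt1 measured 107, 182 and 129 CPM and 870.4, 1098 and 1299 CPM (log2 fold change 2.97, SE 0.24, adjusted p = 0.000204), and Mt2 measured 121, 239 and 93.2 CPM and 784, 957 and 1328 CPM (log2 fold change 2.76, SE 0.37, adjusted p = 0.00104). For both, each PT-KO+I/R library was at least 3-fold above the highest control library. Slc39a14 (ZIP14), an importer of zinc and iron, measured 68.6, 69.5 and 69 CPM and 259.6, 378 and 323 CPM (log2 fold change 2.21, SE 0.15, adjusted p = 0.00013). Slc39a5, another importer, fell from 23.1, 16.7 and 37.3 CPM to 12.1, 5.85 and 6.12 CPM (log2 fold change -1.70, SE 0.37, adjusted p = 0.00722), and the exporters Slc30a1 and Slc30a9 were the other lower calls (-0.62 and -1.06). The metal response element bound by MTF1, read as TGCACNC or TGCGCNC on either strand, was found in 8 of 17 promoters of the list (47.1%) and in 29.9% of all promoters. The promoters of Mt1 (chr8:94178839-94179081) and Mt2 (chr8:94172368-94172617) are shown with the matches in capitals. The stretches hold 1 match in Mt1 and 3 in Mt2, and bases after the RefSeq starts were not searched. The Mt1 stretch is printed up to 8 bases before its RefSeq start.
Mt1: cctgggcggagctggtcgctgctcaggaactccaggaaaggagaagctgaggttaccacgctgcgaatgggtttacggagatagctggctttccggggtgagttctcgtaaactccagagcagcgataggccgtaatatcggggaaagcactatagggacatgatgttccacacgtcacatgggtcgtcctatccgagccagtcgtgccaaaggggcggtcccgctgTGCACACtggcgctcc
Mt2: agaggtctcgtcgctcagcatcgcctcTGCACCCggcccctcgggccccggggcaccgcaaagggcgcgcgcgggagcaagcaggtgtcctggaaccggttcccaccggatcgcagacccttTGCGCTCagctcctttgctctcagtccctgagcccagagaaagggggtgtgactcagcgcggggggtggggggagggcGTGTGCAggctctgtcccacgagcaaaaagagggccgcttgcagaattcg

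Glucose metabolism genes had no common direction. Of 16 genes of gluconeogenesis and fructose metabolism 2 were called higher and 4 lower (7 with total counts or without Ctrl+I/R library 2, 2 without PT-KO+I/R library 3 or 4), with a median of -0.21 (-0.40 to -0.17 with 1 library left out). Slc2a5 (GLUT5), the fructose carrier, measured 47.6, 15.4 and 41.5 CPM and 3.33, 5.85 and 3.12 CPM (log2 fold change -3.05, SE 0.45, adjusted p = 0.00146), and Glud1, glutamate dehydrogenase, measured 465, 473 and 551 CPM and 1296, 897 and 1006 CPM (log2 fold change 1.10, SE 0.17, adjusted p = 0.00167). Pck1, the rate-limiting enzyme of gluconeogenesis, measured 1008, 646 and 2192 CPM and 3503, 2169 and 1680.1 CPM, with overlapping groups (log2 fold change 0.94, SE 0.45, adjusted p = 0.121). Pck1 passed as higher without Ctrl+I/R library 4 (1.56, adjusted p = 0.00962). Of 21 glycolysis genes 4 were called higher and 6 lower, with a median of -0.05 (-0.11 to 0.04 with 1 library left out, -0.25 with total counts). Slc2a1 (GLUT1), the widespread glucose importer, measured 47.2, 84.4 and 59.6 CPM and 137, 223 and 242 CPM (log2 fold change 1.66, SE 0.27, adjusted p = 0.00216), and Pfkm and Pfkl, forms of phosphofructokinase, fell by 1.25 and 1.03 on the log2 scale (adjusted p = 0.00817 and 0.00197).

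Clock and sex-biased genes had calls in both directions. Of 19 clock genes 9 were called higher and 5 lower (3 without PT-KO+I/R library 3 or 4), with a median of 0.46. Arntl (BMAL1), the activator of the clock, measured 4.37, 3.24 and 3.81 CPM and 25.6, 14.3 and 19.1 CPM (log2 fold change 2.36, SE 0.24, adjusted p = 0.000416). Per1, a repressor also induced by glucocorticoids, measured 24.8, 20.3 and 53.8 CPM and 127, 123 and 143 CPM (log2 fold change 2.00, SE 0.33, adjusted p = 0.00239), and the clock-controlled factor Hlf measured 76.5, 38.3 and 101.0 CPM and 14, 9.13 and 10.7 CPM (log2 fold change -2.68, SE 0.35, adjusted p = 0.000877). Arntl and Per1 rose and Hlf fell, each without overlap. The labels give no time of day of collection, and its part in these values was not tested. Of 13 sex-biased kidney genes 6 were called higher and 3 lower, with a median of 0.41 (0.12 to 0.62 with 1 library left out), although Xist was near 0 in all 6 libraries. The list pools genes biased toward either sex, so its counts and median have no single reading. Sult1e1 (log2 fold change 9.37) was among the higher calls and Slc7a12 (-7.27) among the lower. Cyp4b1, a male-biased P450, measured 1009, 693 and 767 CPM and 2129, 1847 and 1919 CPM (log2 fold change 1.26, SE 0.17, adjusted p = 0.00113), and the prolactin receptor Prlr fell from 43.8, 15.2 and 52.8 CPM to 11.1, 8.77 and 8.11 CPM (log2 fold change -2.002, SE 0.41, adjusted p = 0.00598). In a fit to all 12 libraries, 2 of which carried Xist, both calls were lost at log2 fold changes of 1.26 and -1.99 (adjusted p = 0.268 and 0.0751). In that fit 1 member of the list was called higher.

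The genes with the largest changes were set against the sham libraries to ask whether the same difference was present before injury. A fit to all 12 libraries tested 16168 genes, called 4953 for a knockout difference that depended on I/R (30.6% of genes tested), and called 0 genes between PT-KO and Ctrl without I/R at an adjusted p under 0.05 (2259 at an unadjusted p under 0.05). The Ctrl group of that fit was mixed in Xist, with 22402, 19755 and 5 counts, against at most 11 in each of the other 9 libraries. The part of this in both counts was not tested. Of the 30 genes with the largest changes 28 passed the interaction test, 14 of 15 higher and 14 of 15 lower. These genes were chosen for their change after I/R, which is part of the interaction. Their number therefore cannot be set against the share of all genes. Here CPM are scaled over 12 libraries. Plin2 measured 58.5, 72.9 and 58.3 CPM in Ctrl and 89.4, 91.0 and 63.1 CPM in PT-KO (log2 fold change 0.36, SE 0.33, adjusted p = 0.663), against the more than 10-fold gap after I/R. Keg1 measured 2042, 1594 and 2965 CPM in Ctrl and 2804, 3489 and 2504 CPM in PT-KO, so its loss was seen only with I/R (interaction -5.82, SE 0.39, adjusted p = 1.14e-05). Pclaf measured 1.76, 1.77 and 1.27 CPM in Ctrl, 12.9, 16.5 and 13.3 CPM in Ctrl+I/R, 1.45, 0.485 and 0.614 CPM in PT-KO and 0.171, 0.223 and 0.0645 CPM in PT-KO+I/R. Its level in injured PT-KO kidneys thus lay below that of both sham groups. Angptl7, a secreted angiopoietin-like protein, was at 7.99, 8.20 and 12.3 CPM in Ctrl and 3.53, 3.34 and 2.47 CPM in Ctrl+I/R, while PT-KO measured 17.5, 40.0 and 23.6 CPM and PT-KO+I/R 161, 100.5 and 96.3 CPM. The 2 genes that did not pass were Fosl1 (adjusted p = 0.103), with at most 0.122 CPM in any sham library, and Slc7a12 (adjusted p = 0.843). Slc7a12 measured 429.6 and 411 CPM in Ctrl libraries 1 and 2 but 6.04 CPM in Ctrl library 3. Ctrl libraries 1 and 2 are those that carried Xist, and without them the interaction of Slc7a12 was -6.44 (adjusted p = 0.019), with 1 Ctrl library left in the fit. That library was assumed to vary like those of the other groups. Ctrl library 3 was placed by the name of its column, since the labels number the control samples 1, 2 and 4.

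**Figure D5:**
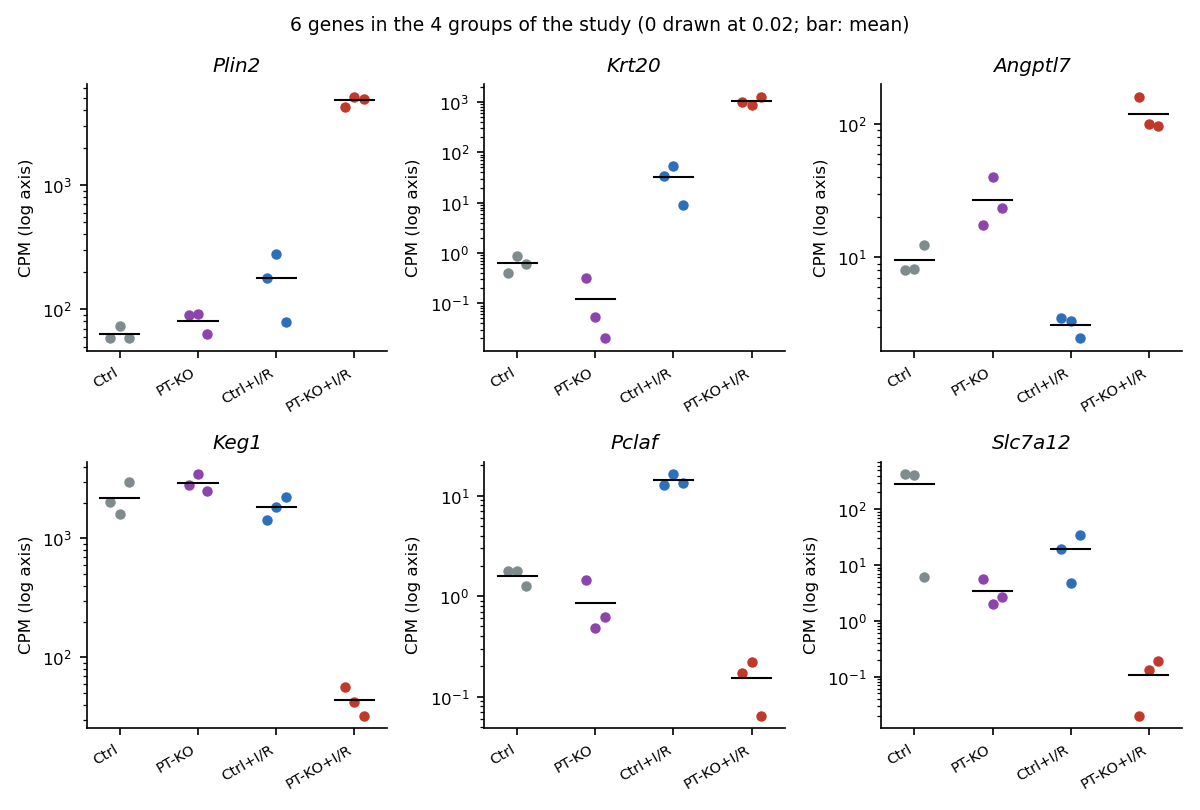
CPM (log axis, 0 drawn at 0.02) of 6 genes in the 3 libraries of each of the 4 groups, with a bar at the group's mean. Plin2 and Krt20 are highest in PT-KO+I/R, with Krt20 also at 8.92 to 54.0 CPM in Ctrl+I/R against 0.857 CPM or less without I/R, Keg1 and Pclaf are lowest in PT-KO+I/R, and Slc7a12 is at 411 CPM or more in 2 of the 3 Ctrl libraries.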

How the data were processed

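RNA-seq of kidney cortex was analysed from the table of read counts per gene that the authors deposited (12 libraries, 55487 Ensembl genes). Per the labels, RNA was extracted with TRIzol and RNeasy reagents and sequenced on a HiSeq instrument, and the submitters' processing notes name HISAT2 2.0.4 and mm10. The counter and strand setting are not given in the sources used here, so antisense, overlapping and paralogous genes may share reads. Symbols came from GENCODE M21 (55227 genes matched) and promoters from RefSeq (GRCm38.p6; 11103 tested genes).

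Counts as deposited were filtered (filterByExpr), scaled by TMM and tested with edgeR 4.0.16 (R 4.3.3), quasi-likelihood F-test, two-sided, Benjamini-Hochberg adjustment, called at 0.05. DESeq2 1.42.0, limma 3.58.1 (voom), other scalings and filters, a replicate block, glmTreat and leaving out each library were alternatives. Intervals and floors (3 counts) cover counting error only, and the total counts set their precision. The script was tested on simulated data.

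Named genes were the 15 highest and lowest fold changes among protein-coding genes averaging 100 counts or more, up to 6 called members per list by size, abundant called genes, genes near 0 in 1 group, and Gfer with its neighbours. A few genes that this rule or the lists hold are not reported here by name. List members called against the rest of their list, members that define a cell type or pathway and did not pass, and others where stated, were added after values were seen. Members and all 43 lists were chosen with earlier results of these data known.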

Additional observations from a re-analysis of the deposited data

Results flagged for a closer look

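For 28 of the 30 genes with the largest changes after I/R, the difference between PT-KO and Ctrl kidneys depended on injury by the interaction test (edgeR, adjusted over 16168 genes). The values are the log2 fold change with I/R minus that without I/R. Among genes higher in PT-KO+I/R it was 12.01 for Sult1e1, 7.32 for Krt20, 5.39 for Pdk4, 4.76 for Retnlg, 4.40 for Akap12, 4.38 for Plin2, 4.02 for Zbtb16, 3.84 for Sphk1, 3.73 for Angptl7, 3.50 for Ctxn3, 3.47 for Adgrg2, 3.34 for Hmga1, 2.99 for Sgtb and 2.00 for Tmem252. Among genes lower in PT-KO+I/R it was -6.59 for Prok1, -6.36 for Ciita, -5.82 for Keg1, -5.67 for Cx3cr1, -5.63 for Slc4a1, -5.49 for Pclaf and for Hsd3b3, -5.35 for Hsd3b2, -4.96 for Nat8f6, -4.87 for Dtl, -4.86 for Clec2h, -4.65 for Acmsd, -4.40 for Aoc1 and -4.39 for Gm4450. The value for Sult1e1 rests on sham and Ctrl+I/R libraries at or near 0 counts and depends on the prior count of the fit. Its call was lost when 1 of 2 single libraries was left out, that of Ctxn3 when 1 was, and that of Sult1e1 also without the 2 Ctrl libraries that carried Xist (adjusted p = 0.0873), in a fit with 1 Ctrl library, whose spread was taken from the other groups. The genes were chosen for their size after I/R, and this direction was therefore fixed by the choice.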

How the results depend on the processing

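Of the counts over all genes, those called (7169), called higher and called lower stayed within 1.5 times of their values with DESeq2, limma voom, RLE or upper quartile factors, other filters and a fit to all 12 libraries. The exception was total counts, with 1978 called higher. Asking for more than a 1.5-fold change (glmTreat) gave 2634 calls, 960 higher and 1674 lower, since that test asks for a larger change. Leaving out 1 library gave 4918 to 7509 calls, 2351 to 3588 higher, 2567 to 3921 lower and 2564 to 3504 over 2-fold. With the replicate number as a block (replicate block) 1683 genes were called, 685 higher, 998 lower and 1523 over 2-fold. Only numbers 2 and 4 occur in both groups, and their libraries did not deviate together from the group means (correlations -0.221 and -0.137). Those are 2 values from groups of 3 libraries, so they cannot settle whether a number marks a shared day or batch. The labels do not say what the numbers mean. Gfer passed only without Ctrl+I/R library 2 (0.404, the lowest value with 1 library left out being 0.214). The interaction passed for 16 of the genes with the largest changes when each of the 12 libraries needed at least 10 counts, which removed genes near 0 from the test, for 26 to 29 with 1 library left out, and for 28 without the 2 Ctrl libraries carrying Xist, an alternative chosen after seeing the data that leaves 1 Ctrl library, assumed to vary like those of the other groups. Its replicate block was not run, because 1 Ctrl column carries a number that no label gives. Genes that did not pass the test changed sign as follows. With total counts Chchd4 was at -0.110 and Spp1 at -0.050. Jun was at 0.079 with limma voom, and Jun, Slc5a2 and Umod were at 0.013, 0.063 and 0.201 with the replicate block. With 1 library left out the log2 fold change ranged from -1.089 to 0.259 for Aqp2, -0.624 to 0.388 for Csf3r, -0.141 to 1.190 for Fos, -0.382 to 0.375 for Jun, -0.364 to 0.149 for Slc5a2, -0.119 to 0.507 for Spp1 and -0.384 to 0.116 for Umod. The cause was not tested. The 129 list results are the calls higher, the calls lower and the median of each of 43 lists. A count moved if it changed by over 1.5 times, or to or from 0. A median moved if it shifted by at least its SD between libraries of a group. Of the 129 results, 30 moved with total counts, 12 with upper quartile factors, 65 with the replicate block, 49 with glmTreat, 9 of 126 with at least 10 counts in every library, 8 with all 12 libraries in 1 fit, 4 with DESeq2, 3 with limma voom or no filter, 0 with RLE factors and 11 to 30 with 1 library left out. The table holds whole-gene counts of whole cortex, so changes in 1 cell type, 1 exon or cell number were not resolved.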

Other observations

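Subunits of the proteasome, of which Psmb8 and Psmb9 were also in the list of interferon-stimulated genes and the others in no list, were 1 of several symbol families picked out after their values were seen. The others are Eif, Nat8 and Ugt, and families not picked include ones near the shares of all genes, such as Tmem (21.9% called higher and 25.7% lower) and Serpin (30.4% and 30.4%). Of 48 tested genes whose symbols begin with Psm, PT-KO+I/R had 32 called higher and 6 called lower, with a median log2 fold change of 0.49, and 20 and 8 with total counts. Psmd11 and Psmd1, of the regulatory particle, measured 92.3, 112 and 91.1 CPM and 139, 164 and 146 CPM in Ctrl+I/R, and 175, 172 and 199 CPM and 265, 248 and 280.2 CPM in PT-KO+I/R. Their log2 fold changes were 0.88 and 0.82 (adjusted p = 0.00113 and 0.00105, edgeR). The catalytic subunits that interferon substitutes into the particle were lower, with Psmb8, Psmb9 and Psmb10 at log2 fold changes of -1.50, -2.72 and -0.99 (adjusted p = 0.00467, 0.00201 and 0.00506). No test compared the subunit kinds.

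Of 53 translation initiation factor genes (symbols beginning with Eif) 26 were called higher and 1 lower, and 14 and 5 with total counts. Eif4ebp1, a brake on cap-dependent translation and a target of ATF4, measured 26.3, 31.7 and 18.2 CPM in Ctrl+I/R and 69.0, 95.4 and 78.2 CPM in PT-KO+I/R (log2 fold change 1.67, adjusted p = 0.000785). Of 8 genes of the Nat8 acetyltransferase family 7 were called lower and 0 higher, and of 15 Ugt glucuronosyltransferase genes 8 were called lower and 2 higher, counts that were the same with total counts. These are multigene families whose members may share reads. The long non-coding RNA Neat1, a scaffold of nuclear paraspeckles, measured 822, 688 and 415 CPM in Ctrl+I/R and 48.8, 82.0 and 58.2 CPM in PT-KO+I/R (log2 fold change -3.34, SE 0.30, adjusted p = 0.000269). Malat1, its neighbour, moved up from 913, 930.5 and 876 CPM to 1486, 1942 and 2515 CPM (log2 fold change 1.13, SE 0.20, adjusted p = 0.00296). Calls varied with abundance, with 12.4% of genes between 3 and 10 CPM called higher and 37.3% lower, against 41.1% and 7.14% of the 56 genes over 1000 CPM.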
